A study of Mus musculus with 69 samples.

Results

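Distal regions that scored as open in every H3.3K27R library and in no WT library were collected from the ATAC-seq peak lists of mouse embryonic stem cells (ESCs). In each of the 6 lists, peaks on chromosomes 1 to 19 were ranked by −log10 q, the peak caller's significance, and the 60000 highest were kept. The lists were then merged wherever peaks shared at least 1 bp, which gave 77289 regions. A region was selected when all 4 mutant lists had a peak in it and neither WT list did, when it lay outside chromosome 11, and when it was over 1 kb from every annotated transcription start site (TSS). This left 808 regions, which were 1.59% of the 50794 distal regions outside chromosome 11. The same pattern of peaks was found in 1181 regions before the other criteria were applied, of which 233 were on chromosome 11 and another 140 lay within 1 kb of a TSS.

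The WT cells were J1 ESCs, a male line of the 129S4/SvJae strain derived from the inner cell mass. The H3.3K27R lines, Mut18 and Mut43, were made from them with CRISPR-Cas9 and carry a lysine-to-arginine change at residue 27 in both H3f3a and H3f3b, the genes that encode the histone variant H3.3. Each mutant line is 1 clone, so what the edit did and what is particular to a clone cannot be told apart within a line. All lines were grown with feeder cells, which were removed by feeder-free passages before harvest. ATAC-seq and mRNA-seq were each done on 2 replicates of every line, called biological replicates in the study, and p-values below measure only the spread between these libraries.

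Enhancers are stretches of DNA outside promoters that bind transcription factors and raise the transcription of a gene that may lie far away. When factors are bound, nucleosomes are displaced, and the exposed DNA is cut by the Tn5 transposase in ATAC-seq, so that a peak marks open chromatin without saying which gene it acts on. Active enhancers in ESCs carry acetylation of lysine 27 on histone H3, and H3.3 is the form of H3 that is deposited at such sites outside replication. In ESCs the open distal sites are bound by the pluripotency factors Oct4, Sox2, Nanog, Esrrb and the Klf proteins, and by CTCF, which organizes chromatin loops.

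The sequences of 6 of these regions are given first, because the later results refer to them. The region near Nanog is shown as the one next to a core pluripotency gene, the region near Lpgat1 as the one with the strongest mutant peaks, and the regions near Prex1 and Ndufv3 as those that hold both a Klf and an Esrrb match and have no WT peak of any rank. The regions near Zbp1 and Fam167a are shown because these genes had the largest rises among nearest genes within 100 kb and with a mean of 50 or more normalized counts. Each sequence is the 300 bp around the summit of the strongest mutant peak, from the GRCm38 reference (the same build as mm10), which is of strain C57BL/6J and not of the J1 cells. Capitals mark matches to the motifs searched, which are described further on.
Nanog region, chr6:122720053-122720352, plus strand: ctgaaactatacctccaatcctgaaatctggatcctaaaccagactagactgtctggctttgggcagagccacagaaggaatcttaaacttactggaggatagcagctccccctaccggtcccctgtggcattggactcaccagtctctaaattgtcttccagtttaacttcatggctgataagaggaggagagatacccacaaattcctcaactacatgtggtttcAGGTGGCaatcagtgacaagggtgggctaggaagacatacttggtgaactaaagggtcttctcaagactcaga
Lpgat1 region, chr1:191712391-191712690, plus strand: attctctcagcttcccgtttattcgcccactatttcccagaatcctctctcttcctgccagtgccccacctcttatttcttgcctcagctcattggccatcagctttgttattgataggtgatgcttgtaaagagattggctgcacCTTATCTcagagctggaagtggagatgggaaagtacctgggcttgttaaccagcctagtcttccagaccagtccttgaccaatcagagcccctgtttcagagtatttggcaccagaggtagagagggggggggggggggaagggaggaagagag
Prex1 region, chr2:166403332-166403631, plus strand: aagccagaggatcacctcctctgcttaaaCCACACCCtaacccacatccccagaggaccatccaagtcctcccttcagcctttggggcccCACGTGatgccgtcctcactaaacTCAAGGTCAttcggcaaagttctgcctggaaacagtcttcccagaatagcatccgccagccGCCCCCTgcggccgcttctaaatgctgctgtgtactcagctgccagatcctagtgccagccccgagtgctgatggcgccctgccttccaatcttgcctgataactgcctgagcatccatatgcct
Ndufv3 region, chr17:31525849-31526148, plus strand: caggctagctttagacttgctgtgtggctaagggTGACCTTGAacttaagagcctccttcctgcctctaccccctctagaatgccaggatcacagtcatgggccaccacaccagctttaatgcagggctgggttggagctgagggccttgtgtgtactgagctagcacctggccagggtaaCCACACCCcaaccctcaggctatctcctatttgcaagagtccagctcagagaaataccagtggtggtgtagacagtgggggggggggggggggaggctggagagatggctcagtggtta
Zbp1 region, chr2:173205669-173205968, plus strand: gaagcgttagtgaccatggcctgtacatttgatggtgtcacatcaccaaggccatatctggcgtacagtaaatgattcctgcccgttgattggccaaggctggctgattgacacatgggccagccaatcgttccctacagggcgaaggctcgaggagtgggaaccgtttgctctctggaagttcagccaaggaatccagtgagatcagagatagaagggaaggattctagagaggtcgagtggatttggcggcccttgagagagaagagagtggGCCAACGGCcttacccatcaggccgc
Fam167a region, chr14:63458276-63458575, plus strand: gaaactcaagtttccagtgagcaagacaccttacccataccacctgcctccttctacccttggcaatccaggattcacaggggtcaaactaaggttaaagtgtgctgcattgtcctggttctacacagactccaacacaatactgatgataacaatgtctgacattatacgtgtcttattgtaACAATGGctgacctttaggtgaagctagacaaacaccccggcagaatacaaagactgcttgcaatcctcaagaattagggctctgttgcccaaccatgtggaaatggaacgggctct

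The Prex1 sequence carries 4 matches, to Klf, E box, Esrrb and CTCF core in that order, and the Esrrb and CTCF core matches lie nearest to the summit. The Ndufv3 sequence carries an Esrrb and a Klf match, both on the minus strand. The Nanog sequence has 1 match, to the CTCF core, and the Lpgat1 sequence has 1, to Gata, which spans the summit. The Zbp1 sequence has 1 AP-2 match near its right end and the Fam167a sequence has 1 Sox match.

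The name "open only in mutants" holds for the 60000 highest peaks and not for the whole lists. Of the 808 regions, 513 (63.5%) overlapped a WT peak that ranked below 60000, and 295 (36.5%) overlapped no WT peak of any rank. The lower-ranked WT peaks were mostly those of WT replicate 1, which overlapped 496 regions, against 144 for WT replicate 2, and both lists overlapped 127 of them. The lists differ in length, with 76114 peaks on chromosomes 1 to 19 in WT replicate 1, 65252 in WT replicate 2 and 61745 to 67790 in the mutants. Rank 60000 was accordingly reached at a −log10 q of 13.9 in WT replicate 1, 10.7 in WT replicate 2 and 8.90 to 11.5 in the mutants.

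The selection threshold was close to many of the regions. The lowest-ranked mutant peak stood below rank 55000 in 348 of the 808 regions, and only 9 regions had all 4 peaks within the first 30000. Just inside the selection, a mutant peak stood at rank 59987 and a WT peak in a selected region at rank 60013. Just outside it, a WT peak at rank 59984 kept a region out, and 1641 other distal regions had peaks in all 4 mutant lists and in exactly 1 WT list. Without WT replicate 1 the rule would choose 1818 regions, and without WT replicate 2 it would choose 1448. For the distance to a TSS, the nearest region inside lay 1005 bp away and the nearest outside 999 bp.

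Peak strength in these regions was moderate. Fold enrichment, the peak caller's ratio of reads at the summit to the local background, averaged over the 4 mutant lists, had a median of 7.21 and ran from 3.12 to 12.1, and it exceeded 10 in 13 regions. By library, the medians were 6.97 and 7.04 in Mut18 and 7.01 and 7.04 in Mut43. In the same libraries, the 24967 distal regions with a peak in all 6 lists had medians of 8.74 to 8.88. Where WT replicate 1 had a lower-ranked peak, its median fold enrichment was 5.29 (2.39 to 6.43), and in WT replicate 2 it was 5.53 (3.08 to 6.55). The regions were chosen by the −log10 q of these peaks, so the values are given as a description only. The ATAC-seq lists hold no read numbers, so the depth behind a peak is unknown.

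**Figure D1:**
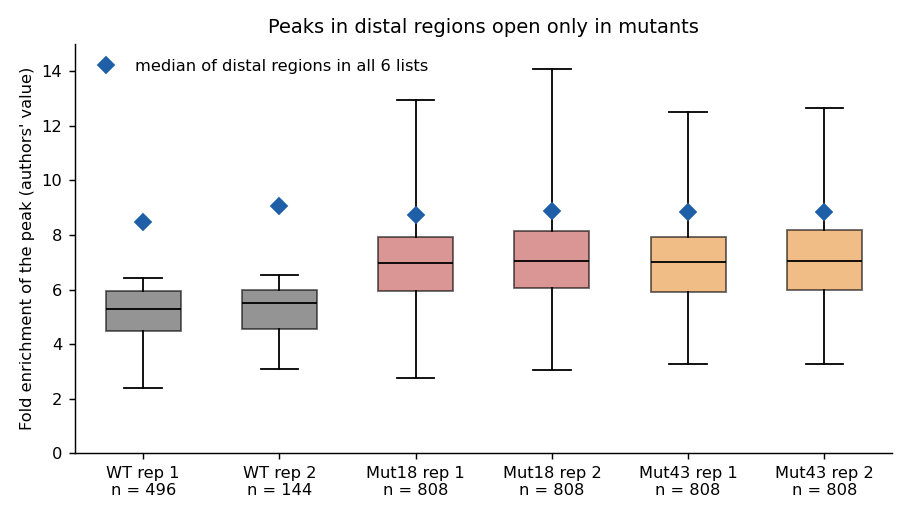
Fold enrichment of the ATAC-seq peaks in the 808 regions, by library, as boxes of the quartiles with whiskers from the lowest to the highest value. WT boxes hold only peaks that ranked below 60000 (496 and 144 regions), and diamonds are the medians of distal regions with a peak in all 6 lists. The medians of the mutant boxes lie between 6.97 and 7.04, below the diamonds, and those of the WT boxes are 5.29 and 5.53.

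The 3 regions with the highest mean fold enrichment lay nearest to Lpgat1, Pde4dip and Bckdhb, where the nearest gene is the one of the count table whose TSS is closest to the middle of the region. The Lpgat1 region, chr1:191712420-191712642, is intergenic and lies 5303 bp from the TSS of Lpgat1, which encodes an acyltransferase of phospholipid synthesis. Its fold enrichment was 12.3 and 14.1 in Mut18 and 11.9 and 10.3 in Mut43, and no WT peak overlapped it. The Pde4dip region, in an intron at chr3:97727860-97728113, had 8.63 and 11.3 in Mut18 and 12.2 and 11.3 in Mut43, also with no WT peak. The Bckdhb region, in an intron at chr9:84018085-84018341, had 9.96 to 11.3 over the 4 mutant libraries, and WT replicate 1 had a lower-ranked peak there with a fold enrichment of 5.51. The other 7 of the 10 strongest lay nearest to Fermt1, Fbxo45, Prdm2, Fat1, D930020B18Rik, Isl1 and Rad51b, with means of 10.3 to 10.7.

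The regions were short and scattered. Their median width was 248 bp (145 to 989), close to the 249 bp of the 1447 distal regions open only in WT and below the 456 bp of those open in all 6 lists. By the middle of the region, 380 (47.0%) lay in an intron, 370 (45.8%) in intergenic sequence and 58 (7.18%) in an exon of some transcript. Over all distal regions these shares were 44.1%, 49.8% and 6.11%. The nearest TSS of any transcript lay at a median of 9820.5 bp, against 12272 bp for regions open in all 6 lists and 18567 bp for regions open only in WT. Few of the regions lay close to each other, since 53 had another one within 20 kb. A region with a WT peak lay within 10 kb of 490 of them and within 1 kb of 49.

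Base composition was near that of other distal regions. The median GC content of the 300 bp searched was 51.3%, against 53.3% in regions open in all 6 lists and 51.3% in regions open only in WT. Repeats, as marked in lower case in the reference, covered a median of 18.3% of the window, against 14.7% and 20.3%. More than 50% of the window was repeat in 24.1% of the regions, against 28.6% of those open in all 6 lists and 35.9% of those open only in WT.

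The chromosomes did not hold equal shares. Chromosome 8 held 78 of the regions, or 21.1 for every 1000 distal regions, and chromosome 5 held 71, or 20.2 per 1000. The lowest values were 11.5 per 1000 on chromosome 1 (44 regions) and 11.8 per 1000 on chromosome 14 (27 regions). The median log2 fold change of all tested genes, mutants over WT in the mRNA-seq, was 0.07 on chromosome 8, 0.00 on chromosome 5 and −0.08 on chromosome 1. The part of gene or chromosome copy number in these shares was not tested.

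Matches to the Klf motif were more frequent in these regions than in the others compared. Klf proteins are zinc-finger factors that bind GC-rich boxes, and Klf2, Klf4 and Klf5 sustain the naive state of ESCs. The motif was searched as GGGTGTGG or GGGCGTGG on both strands, and 136 of the 808 regions (16.8%) held it. The share was 7.86% in the regions open in all 6 lists, 3.59% in those open only in WT and 8.19% over all 50794 distal regions, each searched in the same length. Regions with peaks in all 4 mutant lists and 1 WT list lay between, at 12.7%. Regions with no WT peak of any rank held it in 18.3% (54 of 295) and those with a lower-ranked WT peak in 16.0% (82 of 513). Of the 181 matches, 52.5% lay in the central 100 bp of the window. This was near the 48.8% in regions open in all 6 lists and the 51.1% over all distal regions, and it was 45.9% in those open only in WT.

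The Esrrb motif followed the same order at lower frequency. Esrrb is an orphan nuclear receptor of the naive pluripotency network, searched as TCAAGGTCA. It was found in 23 regions (2.85%), against 0.905% of the regions open in all 6 lists, 0.622% of those open only in WT and 0.996% of all distal regions. Both motifs were present in 8 regions, nearest to Kif11, Hgsnat, Prex1, Ndufv3, Qk, 1700019L03Rik, Pmepa1 and Adgre5. The E box CACGTG, bound by Myc and other helix-loop-helix factors, was in 6.44% of the regions against 4.49% of those open in all 6 lists and 3.11% of those open only in WT. In regions with peaks in all 4 mutant lists and 1 WT list, the shares were 1.71% for Esrrb and 5.55% for the E box.

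Matches to Tead, AP-2 and the CTCF core were less frequent. The Tead factors, partners of Yap at the end of the Hippo pathway, bind ACATTCC, which 2.85% of the regions held, against 5.46% of those open in all 6 lists and 12.6% of those open only in WT. The AP-2 motif GCCNNNGGC was in 9.41%, against 14.5% and 18.5%. The CTCF core, AGGGGGC or AGGTGGC, was in 15.7%, against 24.0% and 18.5%. Of its 139 matches in these regions, 59.7% lay in the central 100 bp, against 48.3% and 36.8% of its matches in the other 2 sets. AP-1 (TGAGTCA) was in 7.30%, against 6.75% and 11.4%. The octamer ATGCAAAT of Oct4 was in 2.23%, against 3.74% and 2.97%, and the Sox motif, ACAATGG or ACAAAGG, in 14.4%, against 17.0% and 15.7%. Overlap between motifs was allowed, a match is a run of letters and not evidence of a bound factor, and neither these shares nor their differences were tested.

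**Figure D2:**
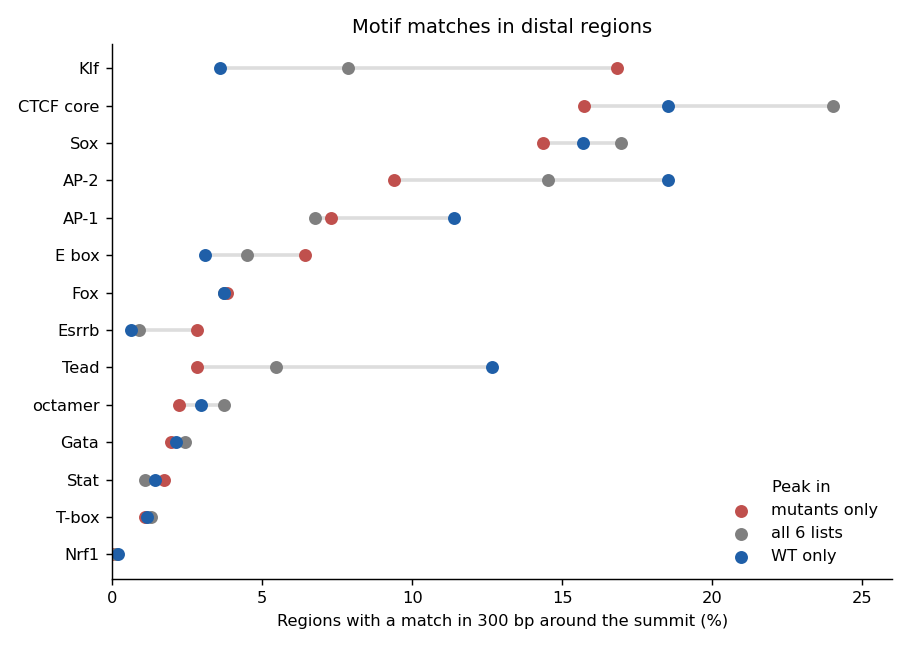
Share of distal regions (%) with at least 1 match to each of 14 motifs in the 300 bp around the summit, for regions with a peak in the mutant lists only (808), in all 6 lists (24967) and in the WT lists only (1447). The mutant-only regions lie farthest above both other sets for Klf (16.8%, against 7.86% and 3.59%), and for most of the other motifs the 3 sets lie closer together.

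**Figure D3:**
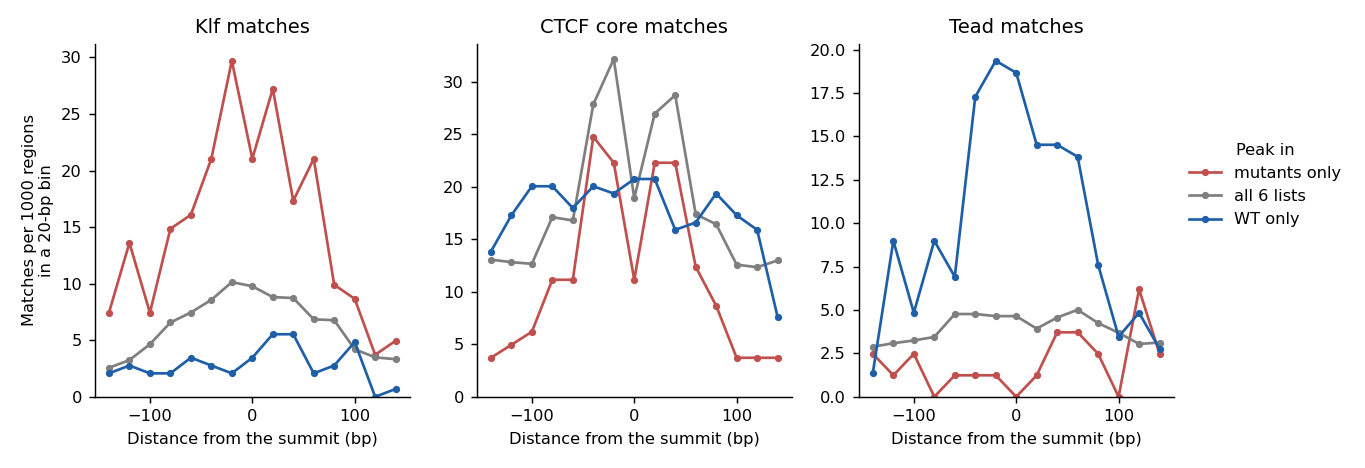
Position of Klf, CTCF core and Tead matches relative to the summit, as matches per 1000 regions in bins of 20 bp, for the same 3 sets of regions. The Klf matches gather around the summit in mutant-only regions, where they reach 29.7 per 1000 regions in a bin. They also do so in regions open in all 6 lists, where they reach 10.1. The Tead matches of WT-only regions are also most frequent near the summit.

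The factors that bind these motifs were themselves measured in the mRNA-seq libraries. All tests of expression used edgeR's quasi-likelihood test, 2 WT against 4 mutant libraries, with Benjamini-Hochberg adjustment over the 14061 genes that passed the filter on low counts. Klf2 had normalized read counts of 1969 and 2173 for WT, 3268 and 3259 for Mut18, and 3181 and 3572 for Mut43. No mutant library overlapped WT, and the log2 fold change was 0.68 ± 0.05 (SE; edgeR adjusted p = 1.32e-09). Klf4 rose by 0.32 ± 0.06 (edgeR adjusted p = 9.45e-05), and Klf5 had a log2 fold change of 0.12 that did not pass the threshold (edgeR adjusted p = 0.0742). At an adjusted p under 0.05 and any fold, 23.5% of all tested genes were higher and 24.5% lower. By this measure 4 of 16 tested genes of the Klf family rose and 2 fell, the falling ones being Klf6 (−0.78) and Klf13 (−0.28).

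Esrrb had normalized counts of 3901 and 3944 for WT, 5127 and 5083 for Mut18, and 5311 and 5348 for Mut43, a log2 fold change of 0.41 ± 0.04 (edgeR adjusted p = 3.68e-08). Nr5a2, a nuclear receptor that binds a related sequence, rose by 0.65 ± 0.06 (edgeR adjusted p = 1.14e-08). Of the 4 Tead genes, 3 fell, with log2 fold changes of −0.34 for Tead1, −0.63 for Tead2 and −1.28 for Tead3, while Tead4 rose by 0.46. Tead1 is also the nearest gene of 1 of the regions, in an intron 35103 bp from its TSS. All 6 tested genes of the Fos and Jun families, whose products bind the AP-1 motif, fell at any fold, with a median of −0.92. The AP-1 share was 7.30% of the regions, 6.75% of those open in all 6 lists and 11.4% of those open only in WT. The gene families of the motifs were listed after the motif shares had been seen, and a link between expression of the factors and the motif shares was not tested. Of the 13 naive-state genes listed, 12 rose and none was the nearest gene of a region, and of the 10 primed-state genes 9 fell and none was a nearest gene.

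The nearest gene of the count table was found for each of the 808 regions, which gave 741 genes. A transcript of a gene that is not in the count table, or was not placed, can start closer to a region. The distance to that gene's TSS had a median of 17646.5 bp, and it was within 20 kb for 431 regions (53.3%) and within 100 kb for 710 (87.9%). In the regions open in all 6 lists the median distance was 29669 bp, and in those open only in WT it was 70116 bp. Of the 741 genes, 670 passed the filter on low counts and could be tested. The remaining 71 had too few reads, among them Isl1, a homeobox factor of motor neurons and heart.

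Genes were called in both directions. At an adjusted p under 0.05 and over 2-fold, 29 of the 670 were called higher in mutants (4.33%) and 33 lower (4.93%). Among all genes tested the shares were 3.28% higher and 5.65% lower, and among genes outside chromosome 11, where every region lies, 2.78% and 5.86%. With no fold threshold, 185 (27.6%) were higher and 163 (24.3%) lower, against 23.5% and 24.5% of all genes and 19.6% and 25.6% of those outside chromosome 11. The median log2 fold change was 0.03, against 0.00 for all genes.

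The nearest genes of the comparison regions gave other shares. Of 973 tested genes nearest to regions open only in WT, 13 (1.34%) were called higher over 2-fold and 162 (16.6%) lower, with a median of −0.21. Of 7404 nearest to regions open in all 6 lists, 3.15% were higher and 7.71% lower, with a median of −0.04. Both comparisons use the same mRNA-seq libraries, and a gene can be nearest to regions of several sets. The differences between the sets were not tested.

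The calls were also counted by distance. For comparison, 2.78% of all tested genes outside chromosome 11 were higher and 5.86% lower over 2-fold. With no fold threshold these shares were 19.6% and 25.6%. Within 20 kb of a region, 385 genes were tested, of which 21 (5.45%) were called higher over 2-fold and 12 (3.12%) lower, with a median of 0.08. With no fold threshold the shares within 20 kb were 31.4% and 17.1%. Of 170 genes tested at 20000 to 50000 bp, 2.94% were higher (5 genes) and 5.29% lower (9 genes) over 2-fold. Of 79 at 50000 to 100000 bp, 6.33% were higher (5 genes) and 7.59% lower (6 genes). Genes at over 100 kb numbered 78, of which 3 were higher and 8 lower over 2-fold. With no fold threshold 19.2% of these 78 were higher and 39.7% lower. The share called lower over 2-fold thus rose with distance, while the share called higher did not change steadily. In the comparison sets the share called lower rose with distance as well. It went from 5.57% within 20 kb to 7.71% at any distance for regions open in all 6 lists. For regions open only in WT it went from 10.2% to 16.6%. Genes within 20 kb of regions open in all 6 lists had 3.68% higher, 5.57% lower and a median of −0.01. Genes nearest to regions without any WT peak, 259 tested, had 10 called over 2-fold in each direction (3.86%).

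**Figure D4:**
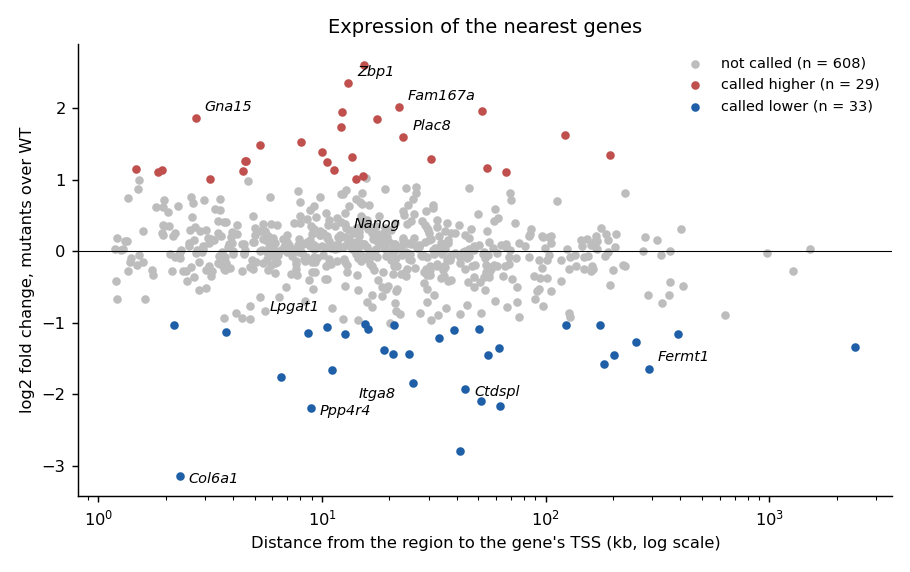
Log2 fold change (mutants over WT, edgeR) of the 670 tested nearest genes against the distance from the region to the gene's TSS on a log axis. Red points are the 29 genes called higher over 2-fold, blue points the 33 called lower and grey points the others, and the genes called higher lie 1474 to 194210 bp away and those called lower 2167 to 2426769 bp.

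The largest rises among genes within 100 kb and a mean normalized count of 50 or more in WT or in mutants were those of Zbp1 and Fam167a. Zbp1 encodes a sensor of left-handed nucleic acids in innate immunity. It had normalized counts of 25.4 and 28.4 for WT, 110 and 147 for Mut18, and 166 and 129 for Mut43. All mutant libraries lay above both WT libraries, and the log2 fold change was 2.35 ± 0.20 (SE; edgeR adjusted p = 6.06e-09). Its region, chr2:173205696-173205873, is intergenic and 13113 bp from the TSS, with fold enrichments of 7.83 and 7.45 in Mut18 and 6.04 and 7.11 in Mut43 and a lower-ranked peak of 5.62 in WT replicate 1.

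Fam167a, a gene of little known function, had normalized counts of 70.3 and 66.6 for WT, 250 and 246 for Mut18, and 309 and 304 for Mut43. The groups were well apart, and the log2 fold change was 2.02 ± 0.13 (edgeR adjusted p = 1.6e-10). Its region, chr14:63458313-63458604, lies in an intron of the gene itself, 22049 bp from the TSS. The peaks there were among the weaker ones, at 4.14 and 4.52 in Mut18 and 4.74 and 4.59 in Mut43, and no WT peak overlapped.

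Another 5 genes described here rose by 1.24 to 1.86 on the log2 scale. Gna15, a G protein alpha subunit, had normalized counts of 24.4 and 18.6 in WT and 63.1 to 88.5 in the mutants (log2 fold change 1.86 ± 0.22, edgeR adjusted p = 5.83e-07), and its region overlapped an exon 2720 bp from the TSS. Plac8, known from placenta and leukocytes, had 141 and 157 in WT and 414 to 495 in the mutants. Its region is intergenic and lies 23072 bp from the TSS.

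The other 3 were A4galt, a galactosyltransferase that makes globo-series glycolipids (log2 fold change 1.31), Pld1, a phospholipase (1.26), and Col9a2, a cartilage collagen chain (1.24). Pld1 was the nearest gene of 2 regions, one 4521 bp and the other 66061 bp from its TSS. The farther region lay 4372 bp from another annotated TSS. In these 7 genes the 4 mutant libraries lay above both WT libraries, and the difference between the clones did not pass the threshold in any of them (edgeR adjusted p from 0.237 to 0.987).

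Within the same limits of distance and mean count, the largest falls in the fit of all 6 libraries were those of Col6a1, Ppp4r4, Ctdspl and Itga8. Col6a1, a chain of type VI collagen, had normalized counts of 428 and 57.8 for WT, 34.0 and 25.3 for Mut18, and 29.5 and 21.3 for Mut43. WT replicate 1 stood far above every other library, and the log2 fold change of −3.13 ± 0.46 (edgeR adjusted p = 1.04e-05) became −1.06 without that library. Its region overlaps an exon 2311 bp from the TSS, and both WT lists had lower-ranked peaks there, of 4.22 and 4.28.

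Fibroblast genes, which mark feeder cells, moved in the same direction. Col3a1 had normalized counts of 843 and 257 in WT and 98.4 to 149 in the mutants. At an adjusted p under 0.05 and any fold, 7 of the 9 tested genes of the fibroblast list fell and 1 rose, where 24.5% of all tested genes fell and 23.5% rose, and their summed normalized counts were 21079 and 19803 in WT and 16505 to 18741 in the mutants. Lum, also on the list, had too few reads to be tested. The part of feeder RNA in the value for Col6a1 was not tested, and fewer cells of a type and less RNA per cell cannot be told apart in such libraries.

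Ppp4r4, a regulatory subunit of protein phosphatase 4, had normalized counts of 200 and 167 for WT, 46.1 and 43.5 for Mut18, and 36.6 and 34.5 for Mut43 (log2 fold change −2.19 ± 0.15, edgeR adjusted p = 2.87e-10). The mutant counts did not overlap those of WT, and the region lay in an intron 8901 bp from the TSS. Ctdspl, a small phosphatase, had 120 and 94.1 in WT and 25.4 to 30.5 in the mutants (−1.93 ± 0.18, edgeR adjusted p = 1.94e-08), and its intronic region had no WT peak of any rank. Itga8, an integrin chain of kidney development, had 68.3 and 79.4 in WT and 15.2 to 26.3 in the mutants (−1.84 ± 0.22, edgeR adjusted p = 6.29e-07).

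Lrrc8c, a subunit of volume-regulated anion channels, Sertad4, Prtg and Bach2 fell by 1.45, 1.44, 1.38 and 1.35 on the log2 scale. Prtg encodes protogenin, a surface protein of the early embryo and neural tube, and had normalized counts of 1173 and 1072 in WT and 394 to 505 in the mutants. Bach2, a repressor in lymphocytes, had 87.9 and 92.1 in WT and 21.4 to 44.5 in the mutants. Of these 8 genes, all had every mutant library below both WT libraries, and the clones again did not differ past the threshold (edgeR adjusted p from 0.376 to 0.994).

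**Figure D5:**
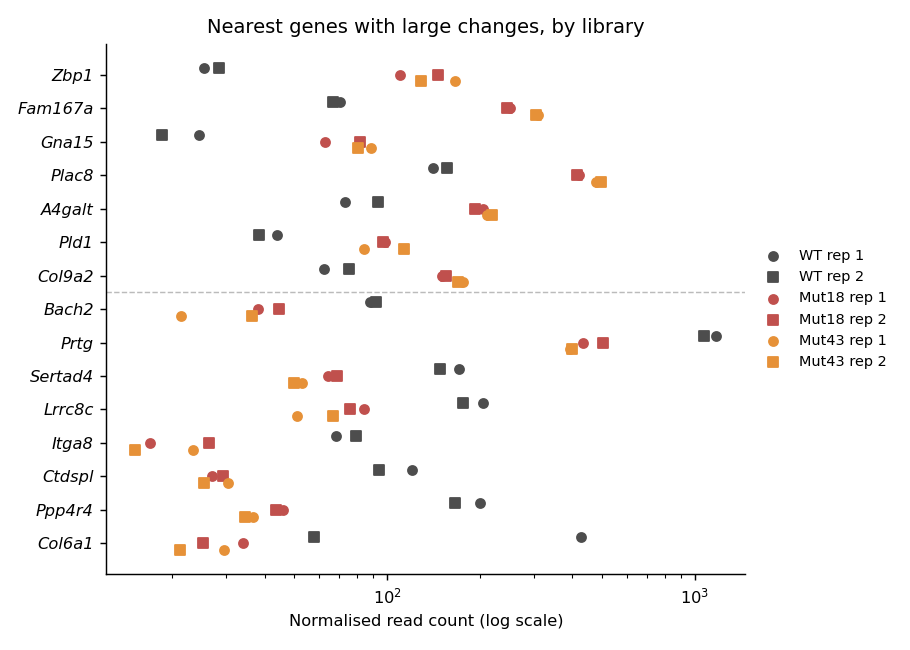
Normalized read counts on a log axis of 7 nearest genes with large rises (above the dashed line) and the 8 with the largest falls (below it) among called genes within 100 kb and with a mean of 50 or more normalized counts, 1 point per library. The mutant points lie on 1 side of both WT points for every gene, and Col6a1 has 1 WT library at 428 and the other at 57.8.

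Among the genes nearest to the 10 strongest regions, expression did not move in 1 direction. Lpgat1, beside the strongest region, had normalized counts of 1184 and 881 for WT, 643 and 720 for Mut18, and 693 and 610 for Mut43. It was lower in every mutant library, with a log2 fold change of −0.63 ± 0.09 (edgeR adjusted p = 3.9e-06) that became −0.40 without WT replicate 1. Fermt1, a kindlin that activates integrins, had a log2 fold change of −1.64 ± 0.15 (edgeR adjusted p = 1.22e-08), with its region 288649 bp away in a window that was 94.3% repeat. Fat1, a large cadherin, fell by 0.25 and Prdm2, a zinc-finger methyltransferase, rose by 0.20 on the log2 scale, both past the threshold. Pde4dip, a protein of the centrosome and Golgi, Bckdhb, an enzyme of branched-chain amino acid breakdown, Fbxo45, part of a ubiquitin ligase, Rad51b, a recombination protein, and D930020B18Rik had log2 fold changes from −0.17 to 1.03, and none of the 5 passed the threshold.

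Of 741 genes, 7 were the nearest gene of 3 or more regions. Bdh1, a mitochondrial enzyme of ketone body metabolism, had 4, at 5450 to 54313 bp from its TSS on chromosome 16. Bdh1 had normalized counts of 241 and 261 for WT, 319 and 315 for Mut18, and 331 and 345 for Mut43, which do not overlap (log2 fold change 0.38 ± 0.08, edgeR adjusted p = 0.000575). Foxn2, a forkhead factor, had 3 regions, at 2559 to 171728 bp from its TSS, and rose by 0.30 (edgeR adjusted p = 8.78e-05). For the regions 78192 and 171728 bp away, other annotated TSSs lay at 19878 and 36295 bp. Hs6st1, a heparan sulfate sulfotransferase, had 3 regions at 186696 bp or more from its TSS and rose by 0.25. Other annotated TSSs lay closer to these regions, at 1742 to 34715 bp. Mycn, the Myc family member prominent in ESCs, had 3 regions at 60467 bp or more and a log2 fold change of −0.21 (edgeR adjusted p = 0.000783). This change was under 2-fold and weakened to −0.11 without WT replicate 2. Other annotated TSSs lay 1697 to 17083 bp from the Mycn regions. Usp6nl, a GTPase-activating protein, fell by 0.32 and had all 3 of its regions in introns. Dlgap1, a scaffold of synapses, and Gpbp1 had log2 fold changes of 0.33 and 0.10 that did not pass the threshold, though Gpbp1 passed it without Mut18 replicate 1 (0.13). Neighbouring regions of 1 gene share that gene and are not separate observations of its expression.

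Some of the genes known in ESC signaling and chromatin were nearest genes. Nanog, a core pluripotency factor, had 1 intergenic region at chr6:122720023-122720320, which lies 12603 bp from its TSS. The fold enrichment there was 5.50 and 6.09 in Mut18 and 5.07 and 5.65 in Mut43, below the median of the 808 regions, and no WT peak of any rank overlapped it. Nanog had normalized counts of 4583 and 4618 for WT, 5200 and 5298 for Mut18, and 5303 and 5318 for Mut43. The mutant values lay above both WT values, with a log2 fold change of 0.20 ± 0.04 (edgeR adjusted p = 0.000165), or 1.15-fold.

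From the same list of ESC core genes, Lin28a and Sall4 were also nearest genes. Lin28a, an RNA-binding protein that blocks let-7 maturation, had normalized counts of 10457 and 10392 in WT and 8534 to 8752 in the mutants, a log2 fold change of −0.27 ± 0.03 (edgeR adjusted p = 1.68e-06), with its region in an intron 2393 bp from the TSS. Sall4, a zinc-finger factor, had a log2 fold change of −0.01 that did not pass the threshold (edgeR adjusted p = 0.89). Over the whole list of 10 ESC core genes, 5 rose and 3 fell without regard to fold, where 23.5% and 24.5% of all tested genes did, and their summed normalized counts were 69698 and 72355 in WT and 73591 to 77392 in the mutants, so the defining markers of ESCs were present in every library.

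Members of the signaling and chromatin lists are counted at an adjusted p under 0.05 and any fold, by which 23.5% of all tested genes rose and 24.5% fell. Il6st, the gp130 receptor chain that carries the LIF signal, was the nearest table gene of 2 regions at 168426 bp or more and rose by 0.21 ± 0.05 (edgeR adjusted p = 0.000952). Other annotated TSSs lay 3355 and 4355 bp from these regions. Of 8 LIF pathway genes, 6 rose and 2 fell. In the Nodal list, where 4 of 13 genes rose and 5 fell, the signal transducer Smad3 fell by 0.56 ± 0.09 (edgeR adjusted p = 3e-05). Its relative Smad2, with its region 279035 bp from the TSS, rose by 0.20, and the receptor Acvr2b had −0.18 without passing. In the FGF and ERK list, where 2 of 12 rose and 6 fell, the phosphatase Dusp4 fell by 0.50 ± 0.07 (edgeR adjusted p = 9.47e-06), and the ETS factor Etv5 had 0.01 without passing. In the Wnt list, where 2 of 12 tested rose and 6 fell, the receptor Lgr5 had normalized counts of 4.88 and 12.7 in WT and 13.2 to 21.3 in the mutants, a log2 fold change of 1.02 ± 0.40 (edgeR adjusted p = 0.0394) that rests on few reads. It lost its call in DESeq2 (adjusted p = 0.137) and without WT replicate 1 (0.49), Mut18 replicate 2 (0.93) or Mut43 replicate 2 (0.93), and it was 1.86 without WT replicate 2.

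Ezh2, the methyltransferase of PRC2, was a nearest gene with a log2 fold change of −0.04 that did not pass the threshold (edgeR adjusted p = 0.407). By the same measure, against 23.5% higher and 24.5% lower among all tested genes, 6 of 12 PRC2 genes rose and 3 fell, and of 9 genes listed for H3K27 acetylation 1 rose and 2 fell. The Ezh2 region is intergenic, 31628 bp from the TSS, and held a Gata match.

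Nearest genes of regions with a Klf match were called in both directions. Of 121 tested nearest genes of the 136 regions with a match, 7 were called higher over 2-fold (5.79%) and 9 lower (7.44%), with a median log2 fold change of 0.04. For the regions without one, 26 of 570 were higher (4.56%) and 25 lower (4.39%), with a median of 0.03. Over all tested genes, 3.28% were higher and 5.65% lower over 2-fold, and over those outside chromosome 11 2.78% and 5.86%. With no fold threshold, 32 of the 121 were higher (26.4%) and 29 lower (24.0%). The shares were 23.5% and 24.5% of all tested genes and 19.6% and 25.6% of those outside chromosome 11. Of the 23 genes nearest to a region with an Esrrb match, 1 was called higher over 2-fold, Adgre5, and none lower. With no fold threshold, 9 of these 23 were higher (39.1%) and 3 lower (13.0%), which rests on few genes. Adgre5, an adhesion receptor of leukocytes also known as CD97, had normalized counts of 399 and 353 in WT and 731 to 887 in the mutants, a log2 fold change of 1.15 ± 0.08 (edgeR adjusted p = 4.36e-10). Prex1 and Ndufv3, near the other regions shown with both motifs, had log2 fold changes of −0.23 (edgeR adjusted p = 0.326) and 0.19 (edgeR adjusted p = 0.0096). Differences between the groups of genes were not tested.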

How the data were processed

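ATAC-seq and mRNA-seq files of 2 WT, 2 Mut18 and 2 Mut43 libraries each were used, grouped by the sample titles. For ATAC-seq the authors deposited 1 peak list per library, not pooled, with a fold enrichment (a ratio), a −log10 p and a −log10 q per peak, which is a score of significance. For mRNA-seq the authors deposited raw whole-number read counts for 16263 genes, without normalization. Reads were aligned to mm10 combined with a Drosophila genome, and the submitters' processing notes name Bowtie2 2.3.4.2, SAMtools, STAR, DESeq2 and deepTools 3.3.0. Strand setting, the annotation used for counting and peak settings are not given in the sources used here. Total counts per library ran from 14992756 to 15143998, so depth was alike.

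Members and gene lists were chosen with earlier results of these data known. TSSs came from GENCODE M21 (GRCm38). Symbols were placed directly (15644) or by a RefSeq synonym (470), and 149 were not placed. Counts were analyzed in R 4.3.3 with edgeR 4.0.16 (filterByExpr with minimum count 10 and total 15, TMM, quasi-likelihood test). Replicates of a line differed by more than counting error, and most in WT (chi-square per gene 3.19 in WT, 2.03 in Mut18 and 1.78 in Mut43). In simulated counts, with the spread set by its trend over all genes, 200 of 200 genes changed 4-fold were recovered, with 1 false call among 13861. The changed genes had a mean count over 50. Changes of 2-fold, and changes in genes with fewer reads or a larger spread, were not simulated. Python 3.11.15 and samtools 1.23.1 were used for regions.

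Named genes are the nearest genes of the 10 strongest regions, the 8 largest rises and 8 largest falls among called nearest genes within 100 kb and with a mean count of 50 or more, nearest genes of 3 or more regions, and nearest genes that are on a fixed list. Adgre5, Prex1, Ndufv3, the other genes of regions with both motifs, Col3a1, Wdr77, the genes of the closing observations and the families of the motif factors were chosen after their values were seen. Alternatives covered the number and ranking of peaks, the joining of peaks, TSS sets and distances, normalization, filters, DESeq2 1.42.0, thresholds, gene assignment, a replicate block, each clone alone and each library left out. The ChIP-seq samples were not analysed here. Some results of named genes are not reported here.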

Additional observations from a re-analysis of the deposited data

Results flagged for a closer look

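A sample far from the others of its group is picked out by chance in about 1 in 20 groups of 4, and 44 genes and 10 regions were looked at. Among the 4 mutant libraries, the normalized count of Etv5 was highest in Mut43 replicate 2, at 5053.59, with the other 3 between 4552 and 4608. That of Ezh2 was lowest in Mut18 replicate 1, at 2635.28, with the others between 2795 and 2807. The fold enrichment of the region near Fat1 was lowest in Mut18 replicate 1, at 9.29171, with the others between 10.98 and 11.02. No nearest gene that the text names differed past the threshold between Mut18 and Mut43 in edgeR. Over all 14061 genes, 1 was called over 2-fold between the clones, Wdr77, which is the nearest gene of none of the regions and was named after its value was seen.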

How the results depend on the processing

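The count of regions depends on what is called a peak. It was 440 with all peaks kept, 295 with no WT peak of any rank (an alternative chosen after seeing the data), 1964 with peaks asked for in at least 3 of 4 mutant lists, 1719 with Mut18 alone and 1722 with Mut43 alone. With 1 list left out it ran from 1085 to 1818, reaching 1818 without WT replicate 1 and 1448 without WT replicate 2. With 50000 peaks per list it was 722, but these overlapped only 30.1% of the 808 regions, and with ranking by fold enrichment it was 710, overlapping 49.1%. The cause was not tested. Among nearest genes, calls of higher and lower expression over 2-fold were 44 and 31 of 1088 tested with every gene within 50 kb. Within 20 kb they were 21 and 12 of 385, and with no WT peak of any rank 10 and 10 of 259. Over all tested genes the shares were 3.28% and 5.65%, and outside chromosome 11 2.78% and 5.86%. Of 670 nearest genes, 60 and 69 were called over 1.5-fold, for which no share over all genes is given here. With no fold threshold the counts were 185 and 163 of 670, against 23.5% and 24.5% of all genes and 19.6% and 25.6% outside chromosome 11. DESeq2 gave 24 and 29 of 741, and 374 and 752 of 16263 over all genes. Leaving out 1 library gave 24 to 28 higher and 27 to 35 lower. The median log2 fold change, 0.0285, was 0.0104 with upper quartile factors, 0.0365 with no count filter, 0.0181 with Mut18 alone, 0.0178 with the nearest protein-coding gene, 0.0368 with every gene within 50 kb, 0.0809 within 20 kb and 0.0148 with the peaks of the shortest list, and 0.0250 to 0.0332 with 1 library left out. The log2 fold change of Sall4 changed sign without Mut18 replicate 1 (0.0145), without Mut18 replicate 2 (0.0072) and without WT replicate 2 (0.0310), and that of Etv5 without Mut43 replicate 2 (−0.0309). Their ranges with 1 library left out were −0.0448 to 0.0310 and −0.0309 to 0.0206, and neither was called. Klf, Esrrb and Tead matches fell to 10.1%, 1.11% and 0.743% of regions when 100 bp were searched. With a replicate block in the edgeR model, 29 genes were higher and 33 lower, and the block changed no call among the named genes. Samples with the same number share only that number, since their deviations correlated at −0.107, 0.0743 and −0.0269. The ATAC-seq lists carry no depth, and with 2 WT libraries a level in WT rests on few cultures.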

Other observations

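Other nearest genes called over 2-fold had few reads, and these examples were chosen after their values were seen. Mt4, a metallothionein of squamous epithelium, had normalized counts of 4.88 and 2.94 in WT and 17.0 to 34.5 in the mutants (log2 fold change 2.61 ± 0.45, edgeR adjusted p = 6.48e-05). The muscle genes Myom2, a protein of the sarcomere M-band, and Mypn, a sarcomere scaffold, rose by 1.96 and 1.52, and Myom2 was the nearest gene of 2 regions, as were the potassium channel gene Kcnu1, which rose by 1.95, and Adgre5.

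Among the genes that fell, the neuronal genes Dpp6, an auxiliary subunit of potassium channels, and Kcna6, a potassium channel, had log2 fold changes of −1.76 ± 0.28 (edgeR adjusted p = 2.12e-05) and −2.09 ± 0.55 (edgeR adjusted p = 0.00297). Dpp6 had 35.1 and 39.2 normalized counts in WT and 8.12 to 13.2 in the mutants, and its region lay 6540 bp from the TSS. Sox6, a factor of muscle and cartilage, had 31.2 and 20.6 in WT and 7.10 to 10.0 in the mutants, with its region 182414 bp away. Better measured were Pcdh1, a protocadherin with 2 regions (−1.15 ± 0.09, edgeR adjusted p = 1.11e-09), and Cpe, a carboxypeptidase that processes hormones (−1.13 ± 0.11, edgeR adjusted p = 3.58e-08), whose region lay 3703 bp from its TSS.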
